A study of Mus musculus with 8 samples.

Results

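Solute carriers are membrane proteins that move amino acids, sugars, ions, metals, nucleotides and metabolites across the plasma membrane and the membranes of organelles. The genes described here are those with a symbol of the solute carrier series (Slc, a family number and a letter; Slc4a11 was left out) and a mean level of 2 FPKM or more over the 4 input libraries. The genes were chosen by their deposited input FPKM, fragments normalized to transcript length and to the mapped fragments of a library, summed over the transcript records of a gene. Of 375 solute carrier genes with a record, 175 met that level and 200 did not, among 24043 genes in all. Of the 200 genes under the level, 12 were listed at 0 in all 4 inputs. The level itself chose the genes and is no finding. Just inside it lay Slc35d1 at 2.02, Slc4a8 at 2.05 and Slc18b1 at 2.06 FPKM, and just outside it lay Slc4a3 at 1.99, Slc47a2 at 1.92 and Slc2a5 at 1.89 FPKM. The rule matches symbols, and 4 of the 175 genes encode no carrier: Slc9a3r1 and Slc9a3r2 encode scaffold proteins, and Slc7a6os and Slc4a1ap are named after a neighbour or a binding partner.

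The libraries came from mouse embryonic stem cells of a mixed C57BL/6 and 129Sv background (strain label C57BL/6X129Sv mix), grown in serum with leukemia inhibitory factor. Cells labelled p53+/+ or p53-/- were untreated or received Adriamycin (doxorubicin, a DNA-damaging topoisomerase poison) at 0.5 uM over 8 hours. For each of the 4 combinations there was 1 input library, described as RNA with a poly(A) tail, and 1 library of RNA brought down by immunoprecipitation (RIP) of hnRNP L, a nuclear RNA-binding protein. The labels do not give a poly(A) tail for the RIP libraries, so RNA selection and immunoprecipitation cannot be told apart. Each of the 8 groups therefore held 1 library, a control antibody library was not used here, and the labels do not say how many clones or cultures stood behind a genotype.

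Carriers in embryonic stem cells feed a metabolism that ferments much of its glucose to lactate: Slc2a1 and Slc2a3 (GLUT1 and GLUT3) bring glucose in, and Slc16a1 and Slc16a3 (MCT1 and MCT4) move lactate. The cationic amino acid carriers Slc7a1 and Slc7a3 bring in arginine and lysine, and the Slc25 family connects the mitochondrial matrix with the cytosol. p53 is a transcription factor that DNA damage stabilises, and the thiamine carrier SLC19A2 is among its known targets in human cells. hnRNP L binds CA-rich RNA, and in rat cells it is known to bind the Slc7a1 message and to aid its translation when amino acids are scarce.

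Transcripts carried 5.67 to 7.48 Gb of mapped sequence in the inputs and 3.21 to 4.94 Gb in RIP, as coverage times length. Mapped fragments falling on annotated transcripts made up 87.6% to 90.6% in inputs, 48.9% and 41.1% in p53+/+ RIP, and 65.2% and 64.2% in p53-/- RIP. Trp53, the gene named by the genotype, stood at 178 and 120 scaled FPKM in untreated and treated p53+/+ input and at 105 and 86.1 in input labelled p53-/-, so its RNA was present under both labels, and p53-/- below means the libraries with that label. The p53 target Mdm2 went from 19.2 to 153 scaled FPKM with Adriamycin in p53+/+ input, and stood at 11.1 and 11.8 in p53-/- input. All 10 embryonic stem cell markers checked were at 1 scaled FPKM or more in every input. Of 24 fibroblast markers, 18 and 15 lay under 1 scaled FPKM in p53+/+ input, against 3 and 3 in p53-/- input, and their summed level was 287 and 211 in p53+/+ against 820 and 903 in p53-/-. Of these markers 4 were listed at 0 in each p53+/+ input, among them Col3a1, Dcn and Lum, and 0 in either p53-/- input.

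Levels below are scaled FPKM, FPKM divided by a factor for each library that sets the median gene equal across libraries. Differences are on the log2 scale of scaled FPKM plus 1, which understates changes of low genes. A difference of 1 or more between 2 single libraries was counted as higher or lower, without a test. Such a contrast has no replicate error, and the bounds given for some values are those deposited for 1 library, which cover the estimate and not the spread of cultures.

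By deposited mean input level Slc25a5, an ADP/ATP exchanger of the inner mitochondrial membrane, led with 611 FPKM, followed by the phosphate carrier Slc25a3 (362), Slc2a1 (356), the second ADP/ATP exchanger Slc25a4 (353) and Slc2a3 (287). Slc25a4 and Slc25a5 are close paralogs, and how shared reads were divided between them is not given, so their separate levels are uncertain. By class the 175 genes were 26 amino acid, 12 glucose and sugar, 22 ion, 22 metal, 30 mitochondrial and 20 nucleotide sugar carriers, with 43 carriers of other organic solutes that also took in families outside the other classes. The 30 mitochondrial genes held 42.2% of the summed carrier level in untreated p53+/+ input and 42.0% in untreated p53-/- input, and the 12 glucose and sugar genes held 18.4% and 20.5%. After Adriamycin the glucose and sugar share was 10.8% in p53+/+ and 15.6% in p53-/- input. In the amino acid class Slc3a2, the heavy chain that brings several Slc7 carriers to the cell surface, led with 95.2 FPKM, ahead of its leucine-carrying partner Slc7a5 (61.1) and Slc7a3 (58.9). The phosphate importer Slc20a1 (45.6), the zinc carrier Slc39a7 of the secretory pathway (69.8), the nucleotide carrier Slc35b1 of the endoplasmic reticulum (65.2) and the nucleoside carrier Slc29a1 (128) led the ion, metal, nucleotide sugar and remaining classes.

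The first comparison asks how carrier RNA differed after DNA damage in p53+/+ cells. Of 175 carriers 24 were higher by 1 or more with Adriamycin in p53+/+ input, 13.7%, beside 8.42% of the 11877 genes tested. A further 13 were lower by 1 or more, 7.43%, beside 3.95% of all genes tested. Among the 10314 genes tested with a mean input of 2 FPKM or more the shares were 8.28% and 4.45%. The treated p53+/+ input is 1 of the 4 libraries that chose the carriers, so these counts are a description. Over the other 3 inputs 7 of the 24 higher carriers lay under 2 FPKM (Slc34a3, Slc37a2, Slc4a8, Slc6a13, Slc2a4, Slc5a11 and Slc35d1), so their place here rests on the library in which they were high. Chosen on the p53-/- inputs alone, a rule set after seeing the data, 169 tested solute carrier genes had 17 higher (10.1%) and 13 lower (7.69%), beside 5.62% and 4.6% of the 9934 genes tested at that level. Of the 27 tested solute carrier genes under the level of 2 FPKM, 1 was higher and 1 was lower. In RIP 26 carriers were higher (9.36% of all genes) and 16 were lower (5.38%). In input and RIP together 23 were higher (6.93% of all genes) and 11 were lower (2.69%). The median over the carriers was 0.02, against -0.05 over all genes tested, so the middle of the carriers lay near 0, and quantile normalization gave -0.14 and -0.09. With 5 FPKM in place of 1 added before the logarithm, 10 carriers were higher and 8 lower. The share of all genes at that setting is not given here, so these counts cannot be set beside a background. The higher ones then under 1 were Slc37a2, Slc6a13, Slc4a8, Slc35e4, Slc12a8, Slc2a4, Slc39a13, Slc5a11, Slc35d1, Slc31a2, Slc50a1, Slc1a1, Slc22a17 and Slc38a7, and the lower ones then above -1 were Slc6a15, Slc35f2, Slc15a1, Slc17a9 and Slc25a13. Fewer cells of a type and less RNA per cell cannot be told apart in these libraries.

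**Figure D1:**
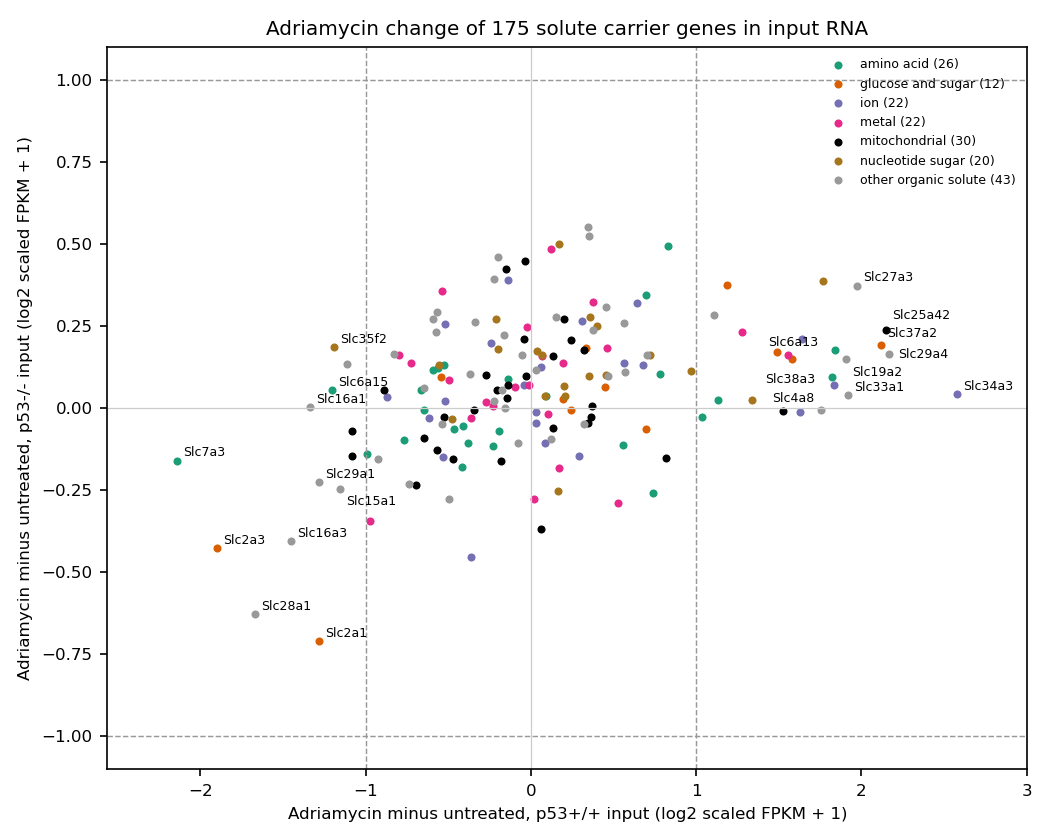
Each point is 1 of 175 carrier genes, coloured by class, placed by the Adriamycin minus untreated difference (log2 of scaled FPKM + 1) in p53+/+ input on the x axis and in p53-/- input on the y axis. Dashed lines mark 1 and -1: 24 genes lie beyond 1 and 13 beyond -1 on the x axis, and 0 beyond either line on the y axis.

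The carriers of glucose and lactate were among those lower. Slc2a3 (chromosome 6, 122677827 to 122692763, mm9) went from 266 scaled FPKM in untreated to 70.5 in treated p53+/+ input, and from 209 to 48.8 in RIP. In p53-/- cells its input levels were 293 and 218. The difference of -1.90 in p53+/+ input stood beside -0.43 in p53-/- input, and the treated p53+/+ library was the lowest of the 4. Slc2a1 (chromosome 4, 118781350 to 118809934) went from 269 to 110 in p53+/+ input and from 416 to 254 in p53-/- input. It was thus lower in both genotypes, at -1.28 and -0.71 in input and at -1.58 and -1.20 in RIP, and it was the single carrier at -1 or beyond in p53-/- RIP. Slc16a1 was at 23.7 and 8.80 in p53+/+ input and at 40.6 and 40.6 in p53-/- input. Slc16a3 was at 52.0 and 18.4, and at 114 and 86.0. Both lactate carriers were thus lower with Adriamycin in p53+/+ input (-1.34 and -1.45), and Slc16a1 did not differ between the p53-/- inputs (0.00). Emb, which encodes embigin, a partner that brings Slc16a1 to the membrane, was at 23.1 and 8.76 in p53+/+ input and at 30.1 and 30.6 in p53-/- input.

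Within the glucose and sugar class 4 of 12 genes were higher and 2 lower. Of the 4 higher genes, Slc37a2, Slc2a4 and Slc5a11 passed 2 FPKM only through the treated p53+/+ library in which they were high. With 5 FPKM added in place of 1, all 4 higher genes were under 1, so the higher count is no result about the class. Slc37a2, of the sugar-phosphate exchanger family of the endoplasmic reticulum, went from 0.504 to 5.55 in p53+/+ input, with 0.189 and 0.358 in p53-/- input. Slc2a4, the insulin-responsive glucose carrier GLUT4, was higher by 1.58, the inositol carrier Slc5a11 by 1.49 and the SWEET-family sugar carrier Slc50a1 by 1.19. The level of Slc37a2 in untreated cells was below 1 in both genotypes.

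Arginine and lysine uptake was represented by 2 carriers with different patterns. Slc7a3 (chromosome X, 98274560 to 98280691) was at 50.3 scaled FPKM in untreated p53+/+ input (deposited bounds 48.9 to 51.7 after scaling) and at 10.6 after Adriamycin, outside those bounds. In p53-/- input it was at 59.5 and 53.2. This was the largest lower difference of the carriers in p53+/+ input, -2.14, with -1.79 in RIP and -0.16 in p53-/- input. Slc7a1, by contrast in level, stood at 6.48 and 5.54 in p53+/+ input, a difference of -0.19. Of the 26 amino acid genes 4 were higher and 2 lower, and the median was -0.31. The neutral amino acid carrier Slc6a15 was the other lower gene, at 2.08 and 0.337 in p53+/+ input and at 2.02 and 2.14 in p53-/- input. The glutamine carrier Slc38a3 was higher by 1.82 (2.01 to 9.65) and the GABA carrier Slc6a13 by 1.84 (0.266 to 3.54). Slc6a13 passed 2 FPKM only through the treated p53+/+ library. The remaining 2 higher genes were Slc1a1, a glutamate carrier, at 1.13 in input but 0.40 in RIP, and Slc38a7, a lysosomal glutamine carrier, at 1.04. The core nutrient carriers Slc3a2, Slc7a5, Slc1a5 and Slc38a2 were all lower by less than 1, at -0.23, -0.41, -0.38 and -0.42.

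Among nucleoside carriers, Slc29a1, an equilibrative carrier, went from 148 to 60.3 in p53+/+ input and stood at 91.2 and 77.8 in p53-/- input, differences of -1.28 and -0.23. Slc28a1, a sodium-coupled pyrimidine nucleoside carrier, went from 9.79 to 2.39 in p53+/+ and from 5.14 to 2.97 in p53-/- input, differences of -1.67 and -0.63. Slc29a2 was at 4.52 and 2.12 in p53+/+ input, a difference of -0.83. Slc29a4, the plasma membrane monoamine carrier of the same family as Slc29a1, moved the other way. It was at 5.50 and 28.3 scaled FPKM in p53+/+ input (bounds 5.08 to 5.93 and 27.3 to 29.2), at 3.02 and 3.51 in p53-/- input, and at 104 and 446 in p53+/+ RIP. The treated p53+/+ library was the highest in input and in RIP, and the input difference was 2.17.

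The thiamine carrier Slc19a2 (chromosome 1, 166179177 to 166195516) was at 13.5 and 53.3 scaled FPKM in p53+/+ input, at 3.67 and 4.18 in p53-/- input, and at 6.56 and 26.8 in p53+/+ RIP. It was higher with Adriamycin by 1.91 in p53+/+ and by 0.15 in p53-/-, and both p53+/+ inputs lay above both p53-/- inputs. The folate carrier Slc19a1 of the same family was at 6.80 and 4.23 in p53+/+ input (-0.58), and the riboflavin carriers Slc52a2 and Slc52a3 differed by -0.16 and -0.15. Slc25a42, the mitochondrial coenzyme A carrier (chromosome 8, 72708239 to 72736180), was at 1.58 and 10.4 in p53+/+ input and at 1.89 and 2.41 in p53-/- input. Its difference was 2.15 in input and 2.84 in RIP, where it went from 40.0 to 293. Slc33a1, the acetyl-coenzyme A carrier of the endoplasmic reticulum, was at 2.72 and 13.1 in p53+/+ input, a difference of 1.92. Slc25a17, a peroxisomal member of the mitochondrial family that carries coenzyme A and related cofactors, was higher by 1.52. Slc27a3, a fatty acid transport protein with acyl-coenzyme A synthetase activity, was at 4.90 and 22.2, a difference of 1.97. In p53-/- input these carriers lay between -0.01 (Slc25a17) and 0.37 (Slc27a3).

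Among ion carriers 4 were higher by 1 or more and 0 were lower. Slc34a3, a sodium-coupled phosphate carrier known from kidney (chromosome 2, 25084417 to 25089754), was higher by 2.58, and it passed 2 FPKM only through the treated p53+/+ library. It was at 1.17 (bounds 0.945 to 1.40) and 12.0 (11.3 to 12.7) in p53+/+ input and at 0.381 and 0.422 in p53-/- input. The bicarbonate exchanger Slc4a8, which passed the level through the same library, was at 0.475 and 4.26, a difference of 1.84, and the potassium-chloride cotransporter Slc12a4 and its relative Slc12a8 were higher by 1.64 and 1.63. The anion exchanger Slc4a2 differed by 0.03, and the sodium-potassium-chloride cotransporter Slc12a2 by -0.52.

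The metal class held 2 genes higher and 0 lower, the zinc carrier Slc39a13 (1.56) and Slc31a2, a copper carrier of intracellular membranes (1.28), while the zinc carriers Slc39a1 and Slc30a1 differed by -0.73 and -0.10. In the mitochondrial class 2 were higher (Slc25a42 and Slc25a17) and 2 lower, the aspartate-glutamate carrier Slc25a13 and the glutathione carrier Slc25a39, both at -1.08. The major carriers Slc25a3, Slc25a4 and Slc25a5 differed by 0.36, -0.65 and -0.70. In the nucleotide sugar class Slc35e4 (1.77) and Slc35d1 (1.34), a carrier of UDP-glucuronic acid, were higher and Slc35f2 (-1.19) was lower. Slc35d1 passed 2 FPKM only through the treated p53+/+ library. In the remaining class 6 were higher and 6 were lower. Those not yet named were Slc22a18 (1.76) and Slc22a17 (1.11) of the organic ion family, the peptide carrier Slc15a1 (-1.16) and the vesicular nucleotide carrier Slc17a9 (-1.11).

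**Figure D2:**
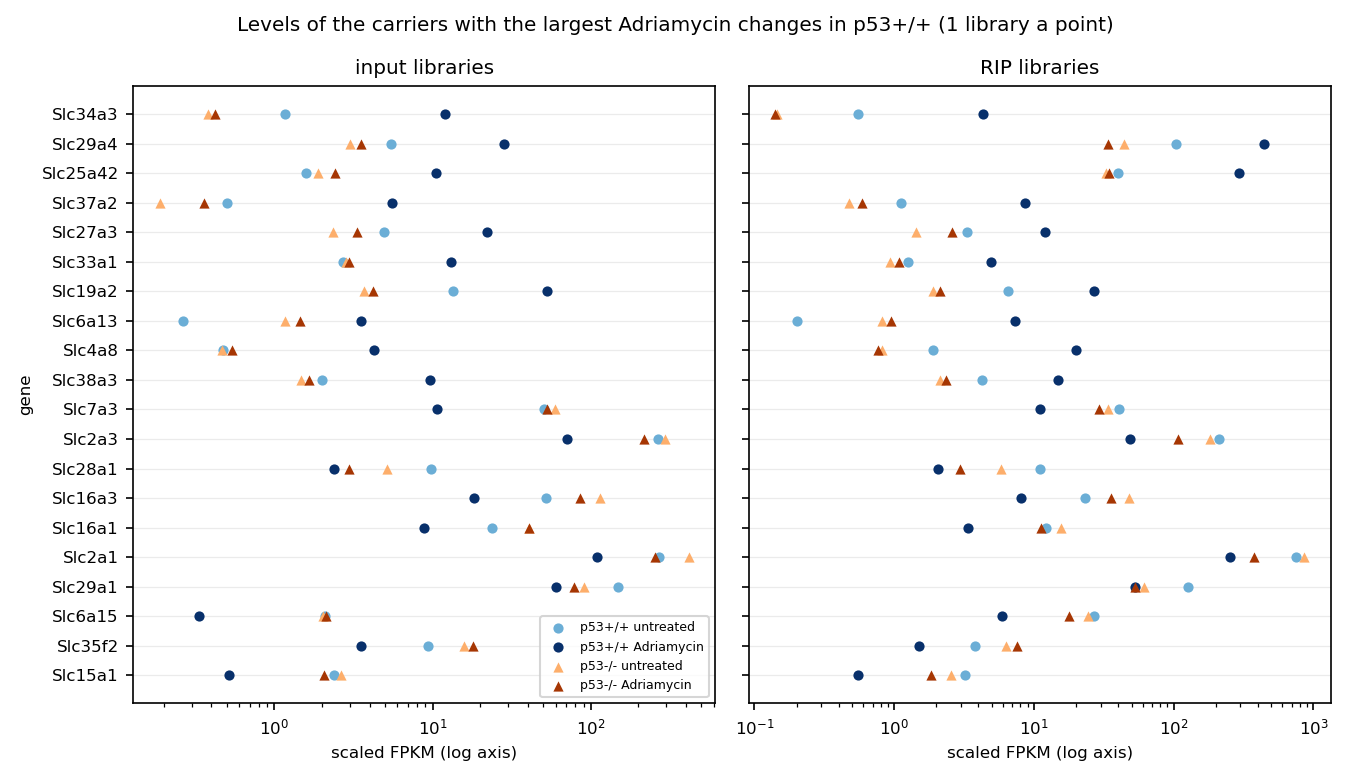
Points are scaled FPKM (log axis) of the 10 carriers with the largest higher and the 10 with the largest lower Adriamycin difference in p53+/+, in the 4 input libraries (left) and the 4 RIP libraries (right), 1 library a point. The dark circle, p53+/+ with Adriamycin, lies to the right of the other inputs for the upper 10 genes and to the left of them for the lower 10.

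Adriamycin in p53-/- cells left 0 carriers higher and 0 lower by 1 or more in input, beside 0.143% and 0.194% of all genes tested. In RIP 0 were higher and 1, Slc2a1, was lower (0.219% and 0.253% of all genes). The range over the 175 carriers ran from -0.71, Slc2a1, to 0.55, the citrate carrier Slc13a5. The lower carriers after Slc2a1 were Slc28a1 at -0.63 and Slc2a3 at -0.43. Among the 127 carriers with 1 transcript record the deposited bounds of the treated and untreated inputs lay apart for 98 in p53+/+ (77.2%, beside 70.9% of all such genes) and for 59 in p53-/- (46.5%, beside 32.5%). All 26 single-record carriers past 1 in p53+/+ had bounds apart, beside 1057 of 1073 such genes among all tested.

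The difference between genotypes in the Adriamycin response was 1 or more for 22 carriers (8.05% of all genes tested) and -1 or beyond for 10 (2.8% of all genes), with 1 library at each corner and no test. The 7 carriers that passed 2 FPKM only through treated p53+/+ input enter these counts and those of the treated genotype contrast too. It was 2.54 for Slc34a3, 2.01 for Slc29a4 and 1.93 for Slc37a2 on the higher side, and -1.98 for Slc7a3, -1.47 for Slc2a3 and -1.38 for Slc35f2 on the lower side. For Slc2a1 it was -0.57. Embryonic stem cell markers moved with the treatment too. With Adriamycin 6 of 10 were lower by 1 or more in p53+/+ input (3.95% of all genes tested) and 1 of 10 in p53-/- input (0.194%). Their summed level was 7221 and 5651 in p53+/+ and 5912 and 5169 in p53-/- input, 0 of 10 lay under 1 scaled FPKM in any input, and their part in the carrier differences was not tested.

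Windows from 250 bases before to 50 after the annotated start were available from RefSeq, build GRCm38.p6, for 133 of the 175 carriers. The p53 half-site, searched by its consensus on both strands, was in 17 of 183 carrier windows (9.29%), beside 8.36% of 32851 windows of all genes. The full site of 2 half-sites up to 13 bases apart was in 0 carrier windows and in 0.0731% of all windows. Of the 21 carriers with a window that were higher by 1 or more in input and RIP with Adriamycin in p53+/+, 2 had a half-site, and of 7 that were lower 0 had one. The windows of these 2 carriers, Slc29a4 and Slc35e4, are shown because both genes were among those higher, with the half-site in capitals. They lie at chr5:142701851-142702150, plus strand, and chr11:3914615-3914914, minus strand, and the match begins 7 and 5 bases after the annotated start.
Slc29a4: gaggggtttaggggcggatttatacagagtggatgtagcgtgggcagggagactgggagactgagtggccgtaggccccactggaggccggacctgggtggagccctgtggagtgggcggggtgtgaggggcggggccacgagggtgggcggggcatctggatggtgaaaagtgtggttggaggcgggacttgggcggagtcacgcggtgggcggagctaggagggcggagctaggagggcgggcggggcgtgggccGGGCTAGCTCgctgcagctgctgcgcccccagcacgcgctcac
Slc35e4: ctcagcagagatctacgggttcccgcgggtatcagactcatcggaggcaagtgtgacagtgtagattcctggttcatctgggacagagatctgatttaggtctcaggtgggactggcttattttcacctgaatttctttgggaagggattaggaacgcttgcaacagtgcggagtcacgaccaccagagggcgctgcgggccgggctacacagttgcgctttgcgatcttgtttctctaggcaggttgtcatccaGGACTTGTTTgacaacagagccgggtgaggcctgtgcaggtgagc
Slc29a4 went from 5.50 to 28.3 scaled FPKM with Adriamycin in p53+/+ input and Slc35e4 from 1.11 to 6.19, against 3.02 to 3.51 and 2.14 to 3.11 in p53-/- input. A match of letters is no evidence of binding, and the share in carrier windows was near that of all windows.

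The second comparison set the genotypes side by side. In untreated input 5 carriers were higher in p53-/- by 1 or more, 2.86% beside 3.18% of all genes tested, and 4 were lower, 2.29% beside 2.41%. These shares lay near those of all genes. On the higher side Slc25a4, the ADP/ATP exchanger of heart and muscle, was at 147 and 93.4 scaled FPKM in untreated and treated p53+/+ input and at 409.6 and 385 in p53-/- input, a difference of 1.47 in untreated cells. The nucleoside carrier Slc29a2 was at 4.52 and 2.12 in p53+/+ and at 14.0 and 15.8 in p53-/- input (1.44). Both p53-/- inputs lay above both p53+/+ inputs for these genes, which their untreated difference chose. The lactate carrier Slc16a3 followed at 1.12, the amino acid exchanger Slc7a6 at 1.06 (8.99 and 5.76 against 19.8 and 21.6) and the vesicular zinc carrier Slc30a3 at 1.02.

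On the lower side Slc19a2 was at -1.63 in untreated and -3.39 in treated cells. The riboflavin carrier Slc52a3 was at 4.95 and 4.35 in p53+/+ and at 1.31 and 1.31 in p53-/- input. Slc7a7, which exchanges cationic for neutral amino acids, was at 34.1 and 57.6 in p53+/+ and at 16.0 and 13.2 in p53-/- input, and its span overlaps that of Oxa1l by 228 bases, so reads there cannot be assigned with certainty. The creatine carrier Slc6a8 was at 22.9 and 20.8 against 10.8 and 11.6. For all 4 genes both p53-/- inputs lay below both p53+/+ inputs, though the untreated difference chose these genes. The paired y+L exchangers Slc7a6 and Slc7a7 therefore differed in opposite directions between the genotypes.

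With Adriamycin 20 carriers were higher in p53-/- input (7.7% of all genes) and 22 were lower (10.8%), in a contrast that shares the treated p53+/+ library with the Adriamycin comparison above. In both treatments 5 carriers were higher (2.2% of all genes) and 3 were lower (1.54%): the 5 were those higher in untreated input, and the 3 were Slc19a2, Slc52a3 and Slc7a7. Slc6a8 was at -0.79 in treated cells. In RIP the untreated difference of the 9 carriers was 0.91 to 1.69 for Slc29a2, Slc16a3, Slc25a4 and Slc30a3, 0.87 for Slc7a6, and -1.19 to -1.66 for the 4 lower carriers. Most fibroblast markers moved with the genotype: all 20 of those tested were above 0 in untreated input, with a median of 2.98. Of these 15 were at 1 or more, beside 3.18% of all genes tested. Testing needed a mean of 1 FPKM over the 8 libraries, which markers near 0 in p53+/+ reached through p53-/- libraries. Of those not tested, Dcn, Lum and Fbn1 were higher in p53-/- input too. Pdgfra was lower there (0.871 and 0.735 in p53+/+ against 0.386 and 0.441 in p53-/-). The part of the markers in the carrier differences was not tested.

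**Figure D3:**
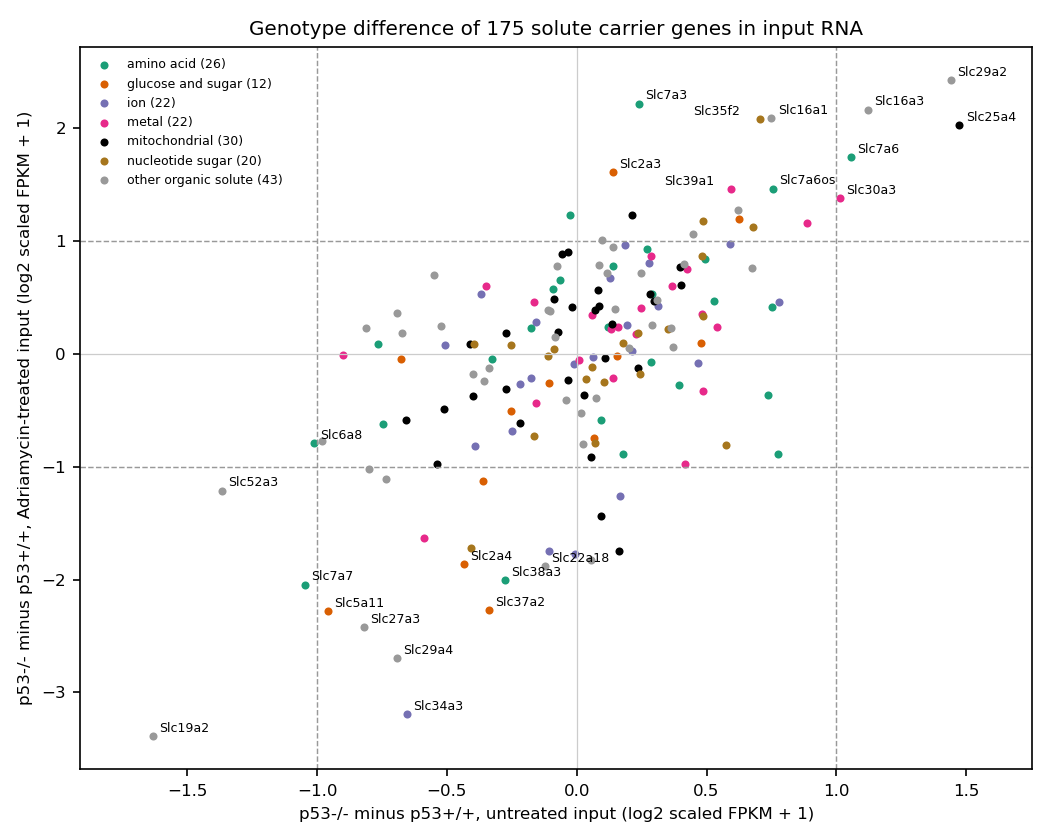
Each point is 1 of 175 carrier genes, coloured by class, placed by the p53-/- minus p53+/+ difference (log2 of scaled FPKM + 1) in untreated input on the x axis and in Adriamycin-treated input on the y axis. Slc25a4, Slc29a2, Slc16a3, Slc7a6 and Slc30a3 lie beyond 1 on both axes, and Slc19a2, Slc52a3 and Slc7a7 beyond -1 on both.

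The third comparison asked which carrier transcripts were over or under their input level in the hnRNP L RIP. It took the 4 combinations as pairs, with limma across all 11877 genes tested. Each pair is a different genotype and treatment, so the SE and adjusted p take differences of the RIP/input ratio among combinations as error. They do not measure the spread of cultures. Of the carriers 60 were higher in RIP (34.3%) at an adjusted p under 0.05 and 64 were lower (36.6%), beside 37.3% and 37.8% of all genes tested. Among the 10314 genes with a mean input of 2 FPKM or more, the level that chose the carriers, the shares were 32.9% and 42.6%. Since input level entered both the choice and the contrast, the counts are a description. Past a difference of 1 as well, 26 carriers were higher (16.2% of all genes and 13.9% of those at the same input level) and 12 were lower (13.4% and 15.5%). Without scaling, on deposited FPKM, 20 carriers were higher and 117 lower, a setting that moved the median of all genes from -0.00 to -0.72. Of the 27 tested solute carrier genes under 2 FPKM, 17 were higher and 5 were lower. Genes low in input were tested only at a mean of 1 FPKM or more over all 8 libraries. High RIP levels helped such genes to pass, so these 2 counts are no result about carriers.

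Slc31a2, the copper carrier (chromosome 4, 61947479 to 61959445), was at 7.57, 19.8, 4.70 and 5.69 scaled FPKM in the inputs of untreated and treated p53+/+ and untreated and treated p53-/- cells. In the RIP of the same 4 it was at 343, 841, 100.0 and 96.7. Its difference was 4.67 ± 0.27 (SE, 4 pairs, limma adjusted p 2.05e-05). Slc7a1, the arginine and lysine carrier (chromosome 5, 149138986 to 149211480), was at 6.48, 5.54, 3.46 and 3.24 in input and at 177, 149.9, 58.9 and 45.1 in RIP. Its difference was 4.07 ± 0.21 (SE, 4 pairs, limma adjusted p 1.56e-05). The other cationic amino acid carrier, Slc7a3, went the other way at -0.48 ± 0.16 (limma adjusted p 0.0318), and was at 40.5 in untreated p53+/+ RIP against 50.3 in input.

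In the mitochondrial class 7 of 30 genes were higher (23.3%) and 15 were lower (50%), beside 32.9% and 42.6% of all genes tested at the same input level. Slc25a42 was higher by 3.90 ± 0.21 and Slc25a12, the aspartate-glutamate carrier aralar, by 3.90 ± 0.13 (limma adjusted p 1.72e-05 and 1.01e-05). Slc25a12 was at 10.1, 6.71, 7.35 and 7.19 in input and at 210, 121, 119 and 92.6 in RIP. Its close relative Slc25a13, citrin, was lower at -1.24 ± 0.09, at 19.1 in untreated p53+/+ input and 7.07 in RIP. The ATP-magnesium and phosphate carrier Slc25a23 was higher by 3.60 ± 0.17. At the other end the abundant exchangers Slc25a5 and Slc25a4 were lower at -1.51 ± 0.11 and -1.47 ± 0.11. The germ-cell member Slc25a31 was at -1.23 ± 0.09 and Slc25a39 at -1.29 ± 0.10. The rule that named the largest RIP differences took only genes of the same sign in all 4 pairs.

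Among the remaining carriers the magnesium carrier Slc41a1 (3.67 ± 0.13), the monoamine carrier Slc29a4 (3.60 ± 0.18), the taurine carrier Slc6a6 (3.26 ± 0.17), Slc6a15 (2.80 ± 0.15) and the lysosomal sialic acid carrier Slc17a5 (2.80 ± 0.31) were highest. Each was higher in all 4 pairs, which the rule that named them required. Slc6a6 was at 15.8, 11.1, 13.8 and 13.2 in input and at 217, 144, 112 and 99.4 in RIP, so its 4 RIP libraries lay above its 4 inputs. On the lower side stood the zinc carrier Slc39a1 (-1.44 ± 0.12), Slc16a1 (-1.29 ± 0.14), the scaffold gene Slc9a3r1 (-1.26 ± 0.09), Slc16a3 (-1.18 ± 0.08) and Slc35f2 (-1.08 ± 0.09). The 2 main glucose carriers differed in direction, Slc2a1 higher by 1.07 ± 0.16 and Slc2a3 lower at -0.64 ± 0.12 (limma adjusted p 0.000789 and 0.00304).

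**Figure D4:**
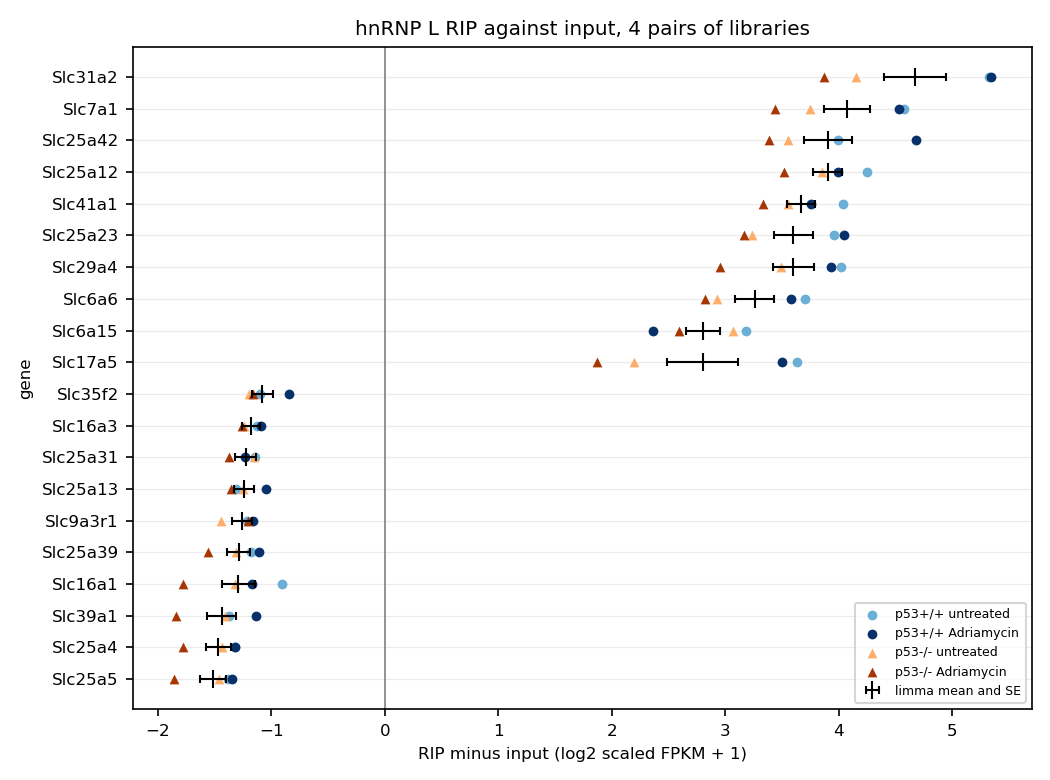
For the 10 carriers highest and the 10 lowest in RIP against input, points give the RIP minus input difference (log2 of scaled FPKM + 1) of each of the 4 pairs of libraries, and the black mark the limma mean with its SE. All 4 points lie on the same side of 0 for all 20 genes, because the genes were chosen by that rule. For Slc31a2, Slc7a1, Slc17a5 and others of the upper 10, both p53+/+ points lie to the right of both p53-/- points.

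By class the amino acid carriers had 10 of 26 higher and 11 lower, with 7 higher and 0 lower past 1. The 7 include Slc7a6os, which encodes no carrier, the creatine carrier Slc6a8 (1.70) and the glutamine carrier family member Slc38a6 (2.63). Glucose and sugar carriers had 4 higher and 3 lower, ion carriers 11 and 5, metal carriers 6 and 5, nucleotide sugar carriers 7 and 10, and the remaining class 15 and 15, to be read beside the same shares of all genes. The class medians ran from -0.35 in the nucleotide sugar class to 0.30 in the ion class, against -0.05 over all carriers and -0.00 over all genes tested. Leading transcript records had a median length of 3315.5 bases in the carriers higher in RIP, 2645 in those lower and 2931 in the others, beside 3358, 1910 and 2751 over all genes, and length was not separated from the RIP difference. The 2 leading genes were unlike in length, 1824 bases for Slc31a2 and 7179 for Slc7a1.

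**Figure D5:**
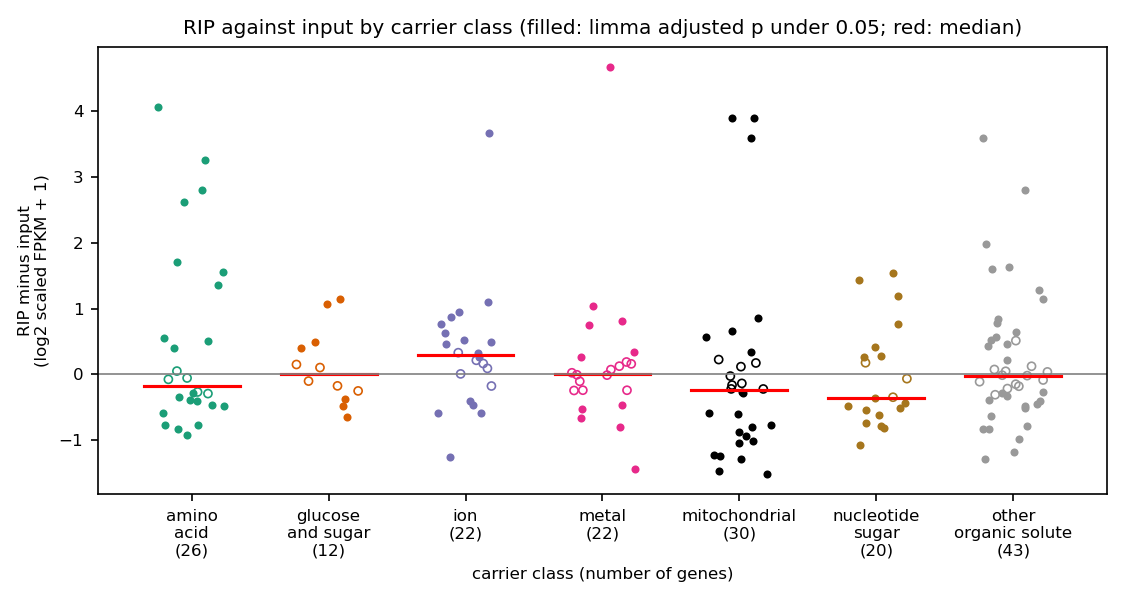
Points give the limma RIP minus input difference (log2 of scaled FPKM + 1) of the 175 carriers by class, filled where the adjusted p was under 0.05, with the class median as a red line. Every class holds filled points on both sides of 0, and the mitochondrial class runs from -1.51 to 3.90.

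A list of 29 genes that act beside the carriers was measured too, and all were tested. In RIP 4 were higher (13.8%, beside 37.3% of all genes tested) and 17 were lower (58.6%, beside 37.8%), and the list was not tested against other genes. The mitochondrial porins Vdac1, Vdac2 and Vdac3 were at -1.65, -1.74 and -1.74, the pyruvate carrier subunits Mpc1 and Mpc2 at -1.57 and -1.64, and Bsg, which encodes basigin, the partner of Slc16a1 and Slc16a3, at -1.50. With Adriamycin in p53+/+ input 1 of the 29 was higher (3.45%, beside 8.42%), the organic anion carrier Slco4a1 (1.79), and 4 were lower (13.8%, beside 3.95%), the sodium pump subunit Atp1b1 (-1.53), the transferrin receptor Tfrc (-1.42), Emb (-1.30) and the calcium pump Atp2a2 (-1.21). With Adriamycin in p53-/- input 0 were higher and 0 were lower. In untreated input Slco4a1 (-1.09) and Mpc1 (-1.01) were lower in p53-/-.

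The last comparison asked whether the RIP/input ratio differed between the genotypes, where each genotype had 2 pairs. These were 1 untreated and 1 treated pair, and treatment was not modelled. The adjusted p values here therefore take the treatment difference within a genotype as error, and do not measure the spread of cultures. By limma 0 carriers had a higher ratio in p53-/- (0.834% of all genes tested, 0.785% of those with a mean input of 2 FPKM or more) and 6 had a lower one (2.41% and 1.96%). On deposited FPKM 36 were higher and 2 lower. The factors left out there were 0.590 and 0.533 in p53+/+ RIP and 0.901 and 0.945 in p53-/- RIP. Leaving them out raises the ratio in p53-/- against p53+/+ across all genes, so these 2 counts are no result about carriers. At an unadjusted p under 0.05 there were 9 higher (5.14%, beside 7.78% of all genes) and 30 lower (17.1%, beside 12.3%). On scaled FPKM 129 of the 175 carriers had a lower ratio in p53-/- and 46 a higher one, with a median difference of -0.20. The ratio was lower too for 24 of the 29 genes that act beside the carriers and for 19 of 20 tested fibroblast markers. Of the 10 embryonic stem cell markers 5 were lower and 5 higher. The lean was thus not particular to carriers. Slc17a5 had a mean log2 ratio of 3.57 in p53+/+ and 2.03 in p53-/-, a difference of -1.53 ± 0.17 (SE, limma adjusted p 0.015). It has 2 transcript records and the leading one differed between libraries. With the larger record alone the difference was -0.82 (limma adjusted p 0.566, with 3.25e-05 to 0.566 over the alternatives). Slc31a2 had mean ratios of 5.33 and 4.01, a difference of -1.33 ± 0.17 (limma adjusted p 0.0191), and Slc7a1 had 4.55 and 3.59, a difference of -0.96 ± 0.17 (limma adjusted p 0.0357). Both p53+/+ pairs lay above both p53-/- pairs for these genes. The vesicular zinc carrier Slc30a2 (-1.39), the lysosomal nucleoside carrier Slc29a3 (-1.02) and Slc25a23 (-0.80) were the other 3. Without either p53-/- pair 0 carriers were called lower, and without the untreated p53+/+ pair 15 were. Annotated transcripts took 48.9% and 41.1% of mapped fragments in p53+/+ RIP and 65.2% and 64.2% in p53-/- RIP, and the part of this in the 6 differences was not tested.

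Of the 48 carriers with 2 or more transcript records, the leading record was the same in all 8 libraries for 30 and differed for 18, among them Slc19a2, Slc17a5, Slc52a3 and Slc16a3. For Slc19a2 the 3457-base record held 51.4%, 45.6%, 49.4% and 50.9% of the gene's level in the inputs of untreated and treated p53+/+ and untreated and treated p53-/- cells, so no record led it. In RIP the same record held 93.3%, 57.3%, 46.4% and 66.6%. The spans of 15 carriers overlapped another gene in the tables, and use of strand in the authors' counting is not given in the sources used here.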

How the data were processed

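Libraries were Illumina TruSeq RNA, per the labels' protocols. The submitters' processing notes name Cufflinks, TopHat, TopHat2 2.0.8, CASAVA 1.8.2 and the build mm9, with no settings. FPKM for 30769 transcript records were deposited by the authors, 1 table per library, with lower and upper bounds, per the file headers. A coverage value per record was deposited by the authors too, per the file headers, and was used only for depth. Read counts were not used here.

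Records were matched by accession to symbols of a RefSeq gene table (29700, 96.5%), and FPKM were summed per gene. Coordinates of genes are those of the files (mm9), and promoter windows those of RefSeq (GRCm38.p6). Values were divided by median-ratio factors, 0.533 to 1.45, and taken as log2 after adding 1 FPKM. Genes averaging under 1 FPKM over the 8 libraries were not tested. RIP was compared with input by limma 3.58.1 in R 4.3.3 (trend, block of 4 combinations, 3 residual degrees of freedom, Benjamini-Hochberg over 11877 genes, threshold 0.05), and ratios between genotypes by limma on 4 differences. The block joins each RIP with the input of the same genotype and treatment. In the ratio comparison treatment was not modelled, which left 2 residual degrees of freedom. Other contrasts had 1 library a side, with no test, and depth is known only as coverage, so no count test was made.

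Genes and lists were chosen with earlier results of these data known. Genes were named if they were core nutrient carriers, the 10 a side with the largest difference past 1 in input and at 0.5 or more of the same sign in RIP, the 10 a side largest in RIP against input with the same sign in 4 pairs, the 3 most abundant of a class, or nearest to 2 FPKM. Genes named to complete a count of a class were chosen after their values were seen. On simulated data for RIP against input, over 11877 genes with 200 changed, 78% of changes of 1 and 97% of changes of 2 were recovered, with 5 false among 180 calls. For the ratio between genotypes 0% and 47% were recovered, with 1 false among 48 calls, and 0 calls were made in either with nothing changed. Noise was drawn independently for each library on values already scaled. In the data far more genes were called in RIP against input (37.3% higher, 37.8% lower). The simulation thus does not measure errors from scaling or from a shift shared within a library. Alternatives covered the added FPKM, scaling, filter, record choice, member rule, block and leaving out pairs.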

Additional observations from a re-analysis of the deposited data

Results flagged for a closer look

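The RIP/input ratio differed between the genotypes for 6 carriers by limma across all genes tested, with 1 untreated and 1 treated pair a side. Each was lower in p53-/- (3.43% of carriers, beside 2.41% of all genes and 1.96% of those at the same input level). Called or not, 129 of the 175 carriers had a lower ratio in p53-/- and 46 a higher one. This lean was not particular to carriers, since 24 of the 29 genes that act beside them had a lower ratio too. On deposited FPKM 36 carriers were higher and 2 were lower, a setting that raises the ratio in p53-/- against p53+/+ across all genes. The differences were -1.53 for the sialic acid carrier Slc17a5 (-0.82 with its larger record alone, limma adjusted p 0.566, with 3.25e-05 to 0.566 over the alternatives), -1.39 for the zinc carrier Slc30a2, -1.33 for the copper carrier Slc31a2, -1.02 for the nucleoside carrier Slc29a3, -0.96 for the arginine and lysine carrier Slc7a1 and -0.80 for the mitochondrial carrier Slc25a23. Slc30a2 alone of these was not enriched over all pairs (-0.01), with ratios of 0.33 and 1.04 in p53+/+ and -0.63 and -0.78 in p53-/-.

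Only the carriers named for the largest Adriamycin differences in p53+/+, or the largest gaps between genotypes, were searched for opposite signs. Of these, 2 past 1 in p53+/+ had opposite signs in the 2 genotypes, in input and in RIP, with values under 1 in p53-/-. Slc12a8, which was not searched, was also higher in p53+/+ and slightly lower in p53-/-, in input and in RIP, so the count of 2 does not cover all carriers. Slc35f2 was lower in p53+/+ (-1.19 in input, -0.94 in RIP) and at 0.19 and 0.23 in p53-/-, a gap of -1.38 in input. Slc17a9, the vesicular nucleotide carrier, was lower in p53+/+ (-1.11 and -1.31) and at 0.14 and 0.30 in p53-/-, a gap of -1.25 in input. The deposited bounds of its p53-/- inputs overlapped (5.47 to 6.43 and 6.17 to 7.10). Each value came from 1 library a side, and these gaps were not tested.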

How the results depend on the processing

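No named gene's value that was recomputed changed sign under the alternatives run, but the balance of calls for the ratio between genotypes turned on deposited FPKM, and the carriers' median Adriamycin difference in p53+/+ input went from 0.02 to -0.14 under quantile normalization. With 5 FPKM added in place of 1, carriers higher and lower with Adriamycin in p53+/+ input were 10 and 8 (24 and 13 as reported), the gap between genotypes in that response 10 and 4 (22 and 10), the genotype difference in untreated input 2 and 1 (5 and 4) and in treated input 13 and 12 (20 and 22). With 0.25 FPKM added the gap was -1 or beyond for 19, and the untreated genotype counts were 8 and 10. For RIP against input (60 higher, 64 lower) deposited FPKM gave 20 and 117, which moved the median of all genes from -0.00 to -0.72, a mean of 5 FPKM or more gave 39 and 41, where fewer genes were tested, no replicate block gave 36 and 27, and leaving out each pair gave 52 to 56 and 51 to 59. For the ratio between genotypes (0 higher, 6 lower) deposited FPKM gave 36 and 2, 0.25 FPKM added gave 1 higher, a mean of 5 FPKM or more 1 higher, quantile normalization 1 lower, the largest record alone 1 lower, no filter 0 lower, and leaving out each pair 0 to 3 higher and 0 to 15 lower. The cause of these shifts was not tested except where stated, and shares of all genes called under these settings are not given here. Without the block Slc25a4, Slc16a1, Slc16a3 and Slc35f2 lost their calls in RIP against input. Slc2a1 was at -0.99 and Slc29a1 at -0.95 with Adriamycin in p53+/+ under quantile normalization. Leaving out the 4 genes that encode no carrier left 171 genes and changed no count by over 1.5 times; that setting, the choice of carriers on p53-/- inputs (17 and 13 with Adriamycin in p53+/+) and the leaving out of pairs for the ratio were chosen after seeing the data. Single libraries, deposited bounds that cover 1 estimate each, and no control antibody limit these comparisons.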
